A study of Sus scrofa with 80 samples.

Results

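Neutrophil granule and calprotectin genes were described across the tissues and ages of the Göttingen minipig, a small pig breed used in drug safety studies. The set was drawn from 10 gene symbols, and 8 of them occur as a gene name on the array among 23736 genes: S100A8, MPO, ELANE, AZU1, PRTN3, BPI, LTF and LCN2, each with 2 probes. PGLYRP1 and CHI3L1 are not gene names in the files used here. The symbols were chosen by name with earlier results of these arrays known, and the contrast behind the choice is not recorded. Each adjusted p given here therefore describes 1 gene within a fit over 23722 genes and is no support for the set as a whole.

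Total RNA of 9 tissues was labelled with Cy3 and hybridized to 80 one-colour custom arrays. Bone marrow, spleen, liver, kidney, cerebellum, cerebral cortex and hypothalamus came from 1 male and 1 female at each of 1 week, 4 weeks, 2 months and 4 months, and from 1 male at 2 years. For testis there was 1 sample per age at all 5 ages, and for ovary 1 sample per age up to 4 months. All animals were Göttingen minipigs of 1 breeder, killed with pentobarbital, and the 2-year male was raised partly at another site with other food and another pentobarbital product. The 8 repeat arrays of the 2-year kidney were averaged, which gave 72 samples, and 1 array of the renal pelvis of that male was kept apart. The labels do not say which tissues came from the same animal, so the p-values measure the spread between these samples. All 16 arrays of the 2-year male lie on 2 of the 11 slides, which hold no other age, so an age of 2 years and the slide cannot be told apart.

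A level is the log2 of the background-corrected, quantile normalized intensity, averaged over the probes of a gene, so that 1 unit is a 2-fold difference. The background was read from the negative control spots, whose 95th percentile lay by array between 2.29 and 3.39 on this scale. Of the 576 values of the 8 genes in the 72 samples, 573 were above that limit and 479 were marked by the scanner software as well above background. The markers of brain, which average 5 genes, lay between 11.93 and 13.19 in the brain regions and did not pass 5.82 in bone marrow, spleen and liver. The hepatocyte markers lay between 7.18 and 7.71 in liver and did not pass 5.07 in the other 3 tissues, though SERPINA1 was only at 3.27 to 3.79 in young liver. The erythroid markers, 10 genes, lay between 10.69 and 11.56 in bone marrow up to 4 months and at 5.38 in the 2-year sample. They are not particular to bone marrow and reached 11.33 in the younger spleens. The osteoblast and stroma markers, 4 genes, lay between 8.24 and 11.34 in bone marrow up to 4 months. They were at 11.40 in the 2-year bone marrow and did not pass 6.97 in spleen, liver and brain. The labels of kidney, testis and ovary were not checked by markers, and spleen had no list of its own.

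Neutrophils are made in the bone marrow and store antimicrobial proteins in granules that form one after another as the cell matures. The azurophil granules form early, at the promyelocyte stage. They hold MPO, the peroxidase that makes hypochlorous acid, the serine proteases ELANE (neutrophil elastase) and PRTN3 (proteinase 3), their inactive relative AZU1 (azurocidin), and BPI, which binds bacterial lipopolysaccharide. The specific granules form later and hold LTF (lactoferrin), which binds iron, and LCN2, which traps the iron carriers of bacteria and is also made by epithelial cells. S100A8 pairs with S100A9 as calprotectin, a calcium-binding complex in the cytoplasm of neutrophils and monocytes. In the pig RefSeq annotation (Sscrofa11.1), ELANE, PRTN3 and AZU1 lie next to each other, as do S100A8, S100A12 and S100A9. In whole tissue, fewer cells of a type and less RNA per cell cannot be told apart.

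Up to the age of 4 months, 7 of the 8 genes had their highest mean level in bone marrow, and the 8th, BPI, had it in kidney. For 6 of the 8, namely S100A8, AZU1, ELANE, PRTN3, MPO and LTF, bone marrow stood apart from every other tissue, since no sample of another tissue lay above its lowest value. For PRTN3 the margin was nil after rounding, with 9.11 both in the 2-month male bone marrow and in the 1-week male spleen. The share of all genes with either pattern is not given here, so these counts describe the genes and are no result about the set. The order below bone marrow was much less clear, because most neighbouring tissues differed by less than the larger of their SDs. The plot of levels by tissue shows both patterns.

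**Figure D1:**
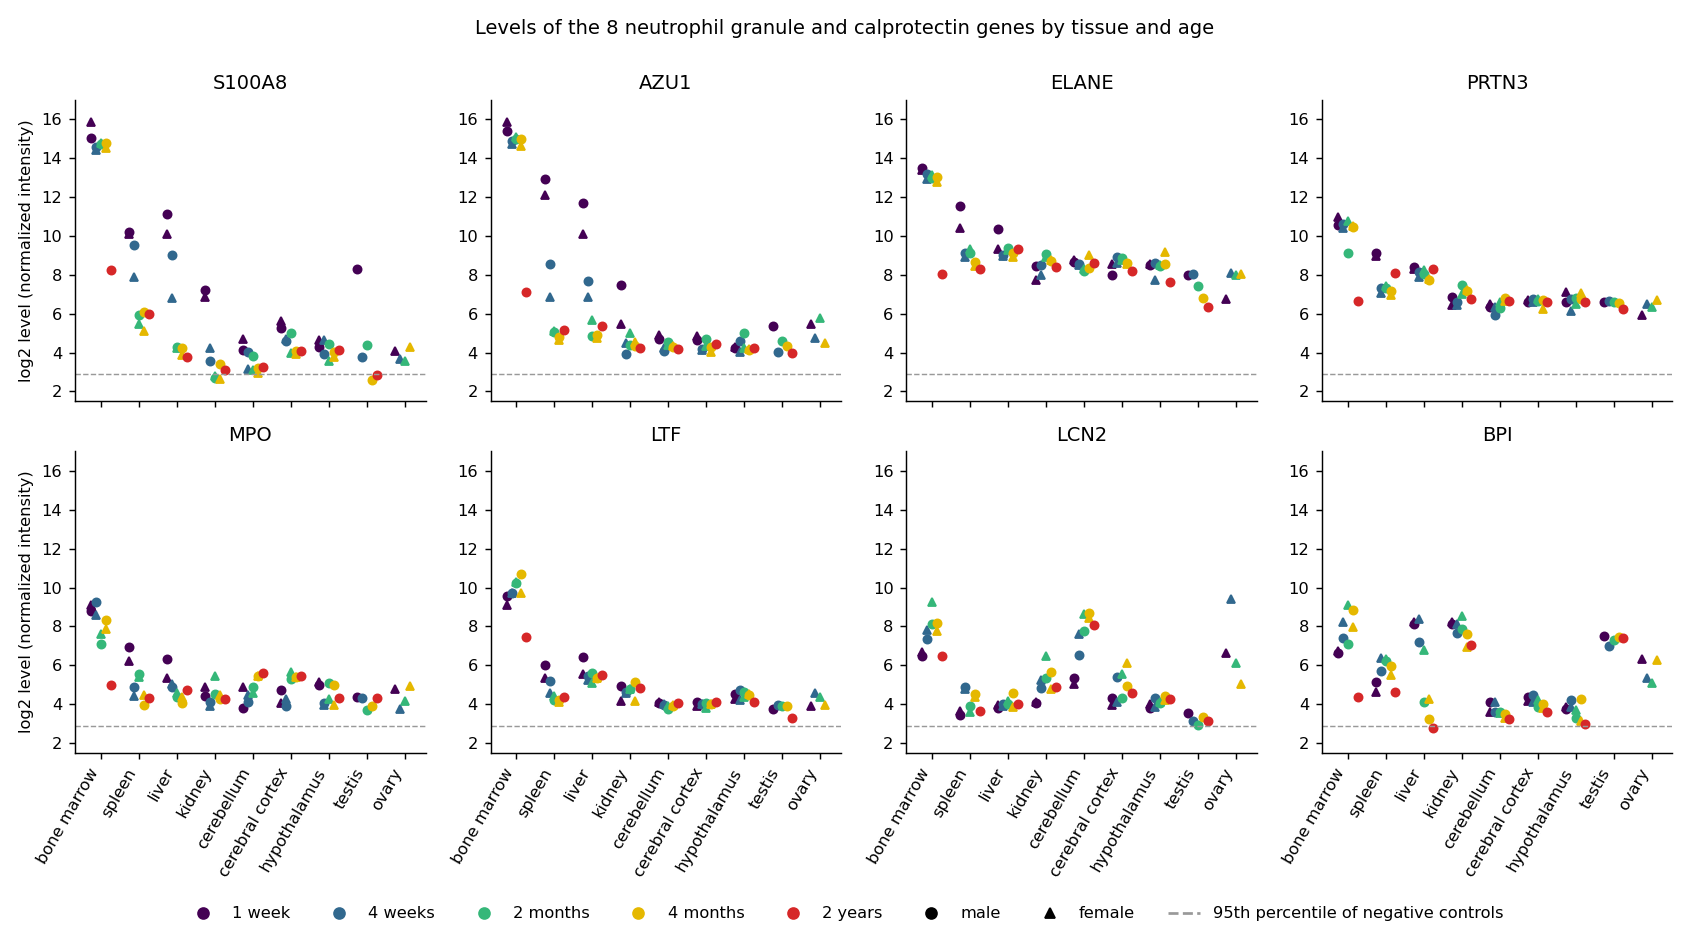
Log2 level of each of the 8 genes in 9 tissues, with 1 point per sample, coloured by age, circles for males and triangles for females, and a dashed line at 2.88, the median over arrays of the 95th percentile of the negative controls. Bone marrow up to 4 months lies above all other tissues for S100A8, AZU1, ELANE, PRTN3, MPO and LTF, while the red 2-year bone marrow sample lies below the younger ones in every panel.

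S100A8 ranged in the 8 bone marrow samples up to 4 months from 14.41 over a median of 14.75 to 15.87, and the highest value, from the 1-week female, had a saturated spot. In spleen it ranged from 5.09 over a median of 6.99 to 10.21, and in liver from 3.86 over a median of 5.54 to 11.12. In the 24 brain samples it ranged from 2.96 over a median of 4.06 to 5.60. Bone marrow was thus above the other 3 in every sample, and spleen and liver samples were spread over several log2 units. S100A9, the partner subunit, was left out of the tests because both of its probes were flagged in the 2-month male bone marrow. Over the other 71 samples its level ran with that of S100A8 at Pearson's r = 0.980, a description over samples that share tissues and slides.

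AZU1 showed the same kind of distribution. It ranged from 14.61 over a median of 14.98 to 15.87 in bone marrow, from 4.64 over 5.99 to 12.92 in spleen, from 4.77 over 6.26 to 11.70 in liver and from 4.01 over 4.29 to 5.00 in brain. Both AZU1 probes carry the tag Xhyb in their names where the probes of the other 7 genes carry Sp. The sources used here do not explain these tags, and their part in the AZU1 values was not tested.

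Among the serine proteases, ELANE ranged from 12.76 over a median of 13.08 to 13.48 in bone marrow and stayed between 7.72 and 9.15 in brain, where every sample was well above background. PRTN3 ranged from 9.11 over 10.55 to 10.98 in bone marrow and between 5.95 and 7.10 in brain. The 2 PRTN3 probes gave bone marrow minus spleen differences of 4.16 and 1.35 (r = 0.84 between probes over 72 samples), and those of ELANE gave 4.26 and 3.08, so the averaged differences of both genes depend on the probe. MPO, the azurophil peroxidase, ranged from 7.11 over 8.47 to 9.25 in bone marrow and from 3.80 over 4.79 to 5.68 in brain, with probe differences of 3.67 and 2.55 between bone marrow and spleen.

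LTF, the iron-binding protein of the specific granules, ranged from 9.10 over a median of 9.73 to 10.70 in bone marrow, and its highest level in spleen, liver or brain was 6.42. LCN2 and BPI broke the pattern. LCN2 had means of 7.70 ± 0.88 (SD, n = 8) in bone marrow and 7.26 ± 1.45 (SD, n = 8) in cerebellum, which overlapped. BPI had means of 7.88 ± 0.48 (SD, n = 8) in kidney, 7.76 ± 0.94 (SD, n = 8) in bone marrow and 7.30 in testis (4 samples), and these 3 neighbours in its order did not differ beyond their spread. In the values that the authors normalized themselves, all 8 genes had their highest mean in bone marrow among the 7 tissues other than testis and ovary.

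The tissue means were compared with limma over the 56 samples taken up to 4 months from the 7 tissues other than testis and ovary, with a Benjamini-Hochberg adjusted p of 0.05 as threshold. All 8 genes were higher in bone marrow than in spleen, a comparison that called 47.4% of all genes in either direction. The log2 differences were 7.56 (SE 0.23) for AZU1, 7.31 (SE 0.25) for S100A8, 5.12 (SE 0.15) for LTF, 3.67 (SE 0.15) for ELANE, 3.55 (SE 0.22) for LCN2, 3.11 (SE 0.18) for MPO, 2.75 (SE 0.15) for PRTN3 and 2.02 (SE 0.28) for BPI. BPI had the least support of these with a limma adjusted p of 2e-07, and no gene's bone marrow range overlapped with its spleen range, although those of PRTN3 met at 9.11. The share of all genes without such an overlap is not given here.

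All 8 genes were also higher in bone marrow than in liver, where 64.2% of all genes were called, and than in the mean of the 3 brain regions, where 75.6% were called. Against liver the log2 differences ran from 1.46 (SE 0.28, limma adjusted p = 2.3e-05) for BPI, whose ranges overlapped, to 8.13 (SE 0.25) for S100A8. Against brain S100A8 and AZU1 differed by 10.69 (SE 0.21) and 10.68 (SE 0.19), and LCN2 differed least, by 2.31 (SE 0.18), with overlapping ranges. S100A8 was well above background in only 1, 5 and 5 of 9 samples of cerebellum, cerebral cortex and hypothalamus, and 1 bone marrow sample was saturated for each of S100A8 and AZU1, so the S100A8 difference is limited at both ends of the scale and that of AZU1 at the top. With such shares of all genes called, the count of members past the threshold says little.

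Spleen and liver lay closer together. Between them 3 of the 8 genes passed, against 63.8% of all genes: S100A8 was higher in spleen by 0.82 (SE 0.25, limma adjusted p = 0.0052), while PRTN3 (-0.39, SE 0.15, adjusted p = 0.021) and LTF (-0.74, SE 0.15, adjusted p = 3.9e-05) were lower in spleen. None of these 3 differences reached 2-fold, the ranges overlapped, and with an offset of 50 both S100A8 (0.33, adjusted p = 0.12) and PRTN3 (-0.13, adjusted p = 0.38) missed the threshold. They are averages over the ages, and their SE holds only the spread between male and female of an age. At 1 week the order was the other way for S100A8 (means of 10.14 in spleen and 10.61 in liver) and PRTN3 (9.05 and 8.36). LTF was lower in spleen at each age up to 4 months. MPO, AZU1 and BPI did not pass, but did so without single samples: MPO without the 1-week male liver or the 1-week female spleen, AZU1 without the 1-week male liver or the 4-week female spleen, and BPI without the 4-week, 2-month or 4-month male liver (adjusted p of 0.0014 to 0.042). Spleen was above brain for 7 genes and below it for LCN2 (-1.25, SE 0.18), so all 8 passed against 73.3% of all genes. Liver was above brain for 6 genes and below it for LCN2 (-1.36, SE 0.18), against 75.1% of all genes, and MPO did not pass, with 0.17 (SE 0.15, adjusted p = 0.30). The mean LCN2 level was 7.26 in cerebellum, 4.84 in cerebral cortex and 4.10 in hypothalamus, against 4.15 in spleen and 4.03 in liver.

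The change with age was taken as the 4 samples at 2 and 4 months minus the 4 samples at 1 and 4 weeks of a tissue, fitted on those 8 samples. S100A8 fell in spleen and liver, and AZU1 was lower there in all older samples. Of the other genes, BPI fell in liver, ELANE and PRTN3 rose in kidney, LCN2 rose in cerebellum and MPO rose in cerebral cortex. No gene of the set passed in bone marrow or hypothalamus.

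**Figure D2:**
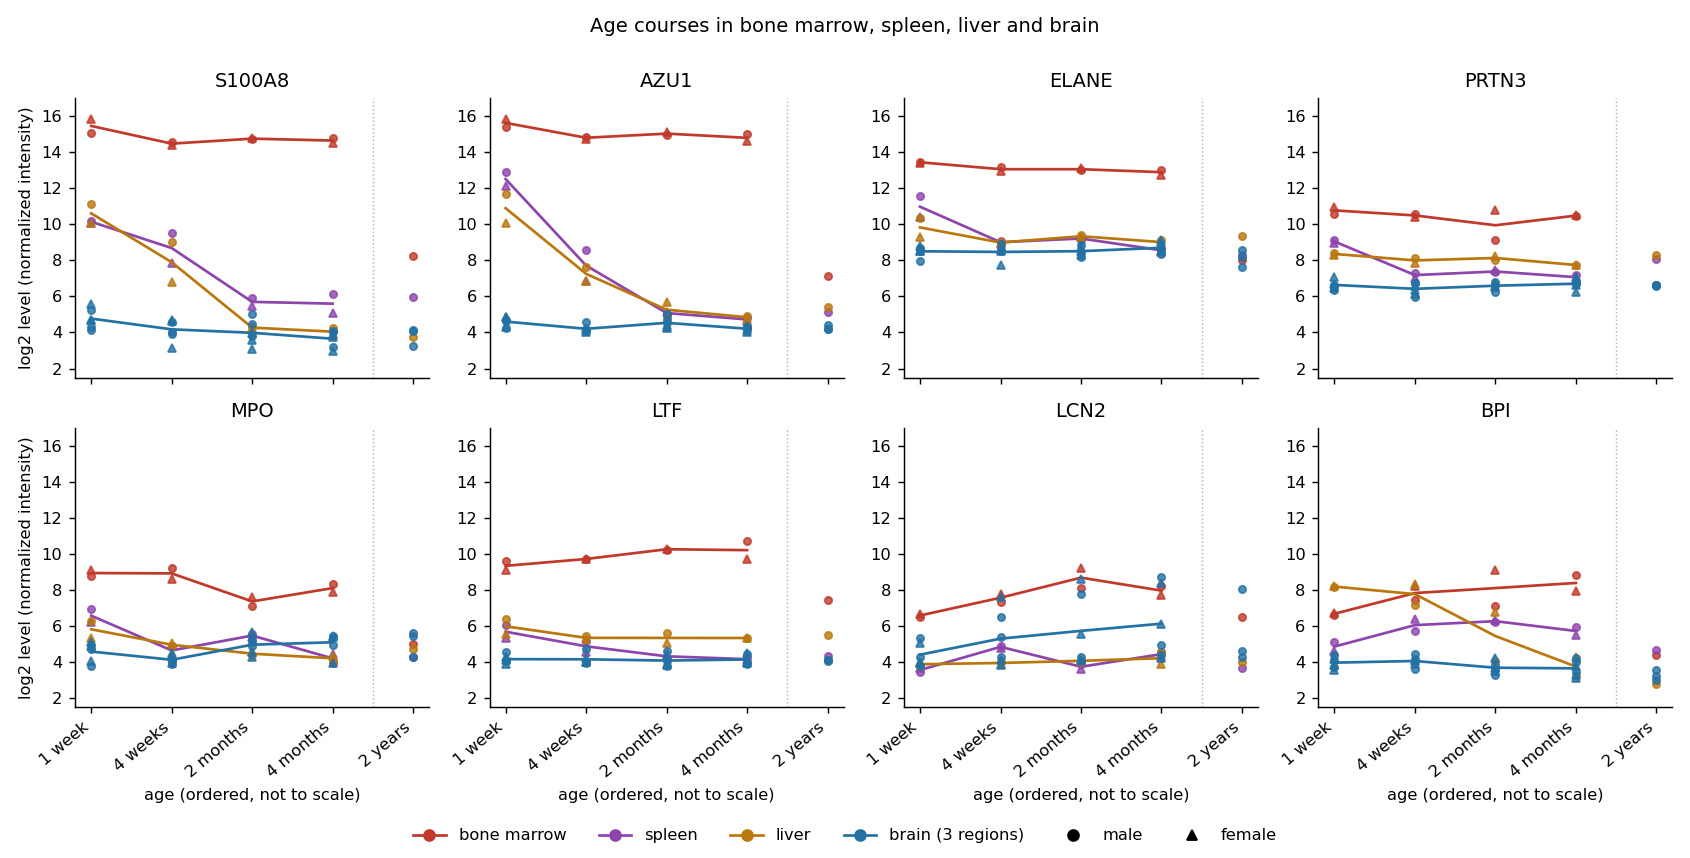
Log2 level of each gene by age in bone marrow, spleen, liver and the 3 brain regions, with circles for males, triangles for females and lines through the mean of each age up to 4 months. The 2-year points, right of the dotted line, are single males on slides of their own. S100A8 and AZU1 drop in spleen and liver from 1 week to 2 months while bone marrow stays above 14.4 up to 4 months.

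In spleen, S100A8 was at 10.21 and 10.08 in the male and female at 1 week and at 9.51 and 7.86 at 4 weeks. It was then at 5.91 and 5.49 at 2 months and at 6.11 and 5.09 at 4 months. The younger and older groups did not overlap, and the 2-year value of 5.99 lay within the older range. The fall was 3.77 on the log2 scale (SE 0.49, limma adjusted p = 0.011), or 13.6-fold. Without the 4-month female it missed the threshold (-3.58, adjusted p = 0.052). In liver, S100A8 was at 11.12 and 10.10 at 1 week and at 9.02 and 6.78 at 4 weeks. It was at 4.30 and 4.24 at 2 months and at 4.23 and 3.86 at 4 months, and none of these 4 values was well above background. By this scanner flag, all 4 younger liver samples thus held a measured level and no older one did, nor did the 2-year male at 3.77. All 9 livers were above the 99th percentile of the negative controls. With the offset of 0 used here, the level was at least 34.2-fold higher in the younger group (means of 9.25 and 4.16, limma adjusted p = 0.016). That call was lost without the 2-month male, the 1-week female or the 4-month male (adjusted p of 0.053, 0.062 and 0.06) and with a background offset of 50 (-3.35, adjusted p = 0.07).

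S100A9 followed the same course. In spleen it was at 7.71 and 7.90 at 1 week, at 7.10 and 5.90 at 4 weeks, and between 3.63 and 4.35 at 2 and 4 months. In liver it was at 9.03 and 7.89 at 1 week, at 6.82 and 5.08 at 4 weeks, and between 3.26 and 4.07 at 2 and 4 months. Both subunits of calprotectin therefore had no older value as high as their lowest younger value in either tissue.

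AZU1 spanned several log2 units with age. In spleen it was at 12.92 and 12.11 at 1 week, at 8.56 and 6.87 at 4 weeks, at 5.05 and 5.11 at 2 months and at 4.81 and 4.64 at 4 months. In liver it was at 11.70 and 10.09 at 1 week, at 7.66 and 6.85 at 4 weeks, at 4.86 and 5.67 at 2 months and at 4.92 and 4.77 at 4 months. No older sample reached a younger one in either tissue, but the samples at 1 and 4 weeks differed so much from each other that the difference missed the threshold in spleen (-5.21, SE 1.18, limma adjusted p = 0.053) and in liver (-4.02, SE 0.89, adjusted p = 0.056). Without the 4-week female both passed (-6.29, adjusted p = 0.013 and -4.76, adjusted p = 0.028). In a fit of all 56 samples with a mean for each tissue and age, where the spread is that between male and female, both passed (adjusted p of 3.7e-14 and 5.1e-11).

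**Figure D3:**
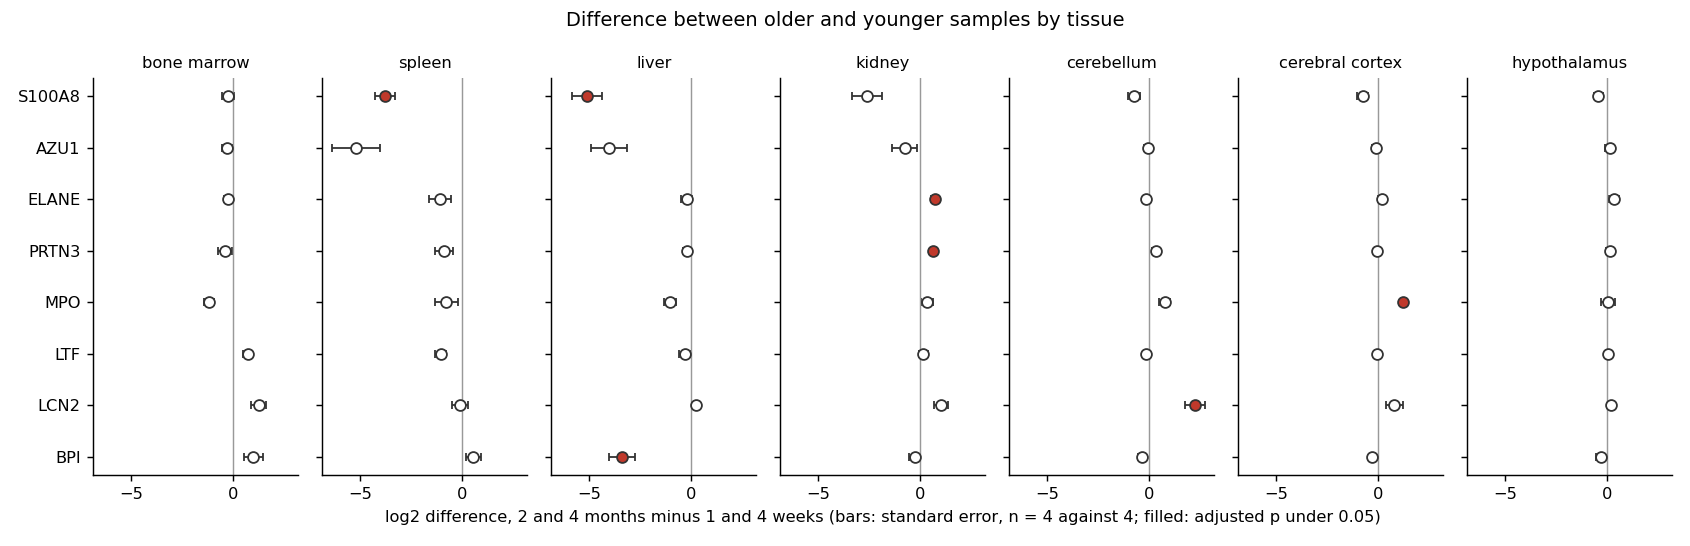
Log2 difference between the 4 older (2 and 4 months) and the 4 younger (1 and 4 weeks) samples of each of 7 tissues for the 8 genes, with standard errors, where filled points have a limma adjusted p under 0.05. The negative points beyond -3 are S100A8 and AZU1 in spleen and liver and BPI in liver, and bone marrow has no filled point.

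The other members changed less in spleen. LTF was between 4.58 and 6.04 in the younger and between 4.12 and 4.43 in the older spleens, a difference of -1.04 (SE 0.27, limma adjusted p = 0.076) with no overlap, which passed without the 4-week female (-1.27, adjusted p = 0.022). ELANE was at 11.56 and 10.40 at 1 week and between 8.47 and 9.32 from 4 weeks to 4 months, and PRTN3 was at 9.11 and 8.99 at 1 week and between 6.96 and 7.44 from 4 weeks to 4 months. For these 2 proteases the 1-week spleens were set apart and the 4-week spleens lay with the older ones, so the test of 4 against 4 gave -1.11 (SE 0.54, adjusted p = 0.28) and -0.89 (SE 0.46, adjusted p = 0.31). MPO was at 6.93 and 6.23 at 1 week and did not pass 5.54 at any later age (-0.77, SE 0.58, adjusted p = 0.48). In all, 1 of the 8 genes passed in spleen and 3.11% of all genes did, and 3 of the 8 (S100A8, AZU1 and LTF) had all older samples below all younger ones against 6.67% of all genes. In the fit of 56 samples 6 of the 8 passed, with ELANE, PRTN3, LTF and MPO added to S100A8 and AZU1. The share of all genes that passed in that fit is not given here, and 3.11% is not its background.

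In liver, BPI was at 8.15 and 8.24 at 1 week and at 7.19 and 8.36 at 4 weeks. It was at 4.09 and 6.81 at 2 months and at 3.24 and 4.27 at 4 months, and it was not well above background in the 4-month male or, at 2.77, in the 2-year male. From 1 to 4 weeks the BPI mean differed by -0.42, against -2.71 for S100A8 and -3.64 for AZU1. From 4 weeks to 2 months it differed by -2.33, against -3.63 and -1.99. These steps were not tested, and at 2 months the BPI level of the female lay well above that of the male. The fall of BPI was 3.38 on the log2 scale (SE 0.64, limma adjusted p = 0.036), with 3 of the 4 older samples well above background, and -1.89 with an offset of 50. It held without the 4-week male or the 2-month female and was lost without any 1 of the other 6 samples (adjusted p of 0.06 to 0.11), with an offset of 50, with processed intensities, with the authors' values and with a robust trend in the variance (adjusted p of 0.052, 0.066, 0.069 and 0.056). MPO was between 4.87 and 6.31 in the younger and between 4.08 and 4.56 in the older livers (-1.05, SE 0.28, adjusted p = 0.093). Thus 2 of the 8 genes passed in liver against 1.81% of all genes, and 4 of the 8 had all older samples below all younger ones against 5.59% of all genes. ELANE, PRTN3, LTF and LCN2 had overlapping groups there and differences between -0.33 and 0.22.

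Arrays were scanned on several days, some of which hold both younger and older samples of a tissue. With scan day as a block in the fit of 56 samples, the S100A8 difference was -3.72 in spleen and -5.11 in liver, that of AZU1 -5.18 and -3.89, and that of BPI in liver -3.43. Within single days that hold 1 younger and 1 older sample, S100A8 differed by -1.957 and -4.099 in spleen and by -2.922 and -4.713 in liver. AZU1 differed within the same days by -1.815 and -8.108 in spleen and by -2.078 and -2.804 in liver. BPI differed in liver by -4.093 and -3.104. The direction was the same on each of these days.

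In bone marrow, S100A8 was at 15.05 and 15.87 at 1 week, at 14.55 and 14.41 at 4 weeks, at 14.74 and 14.77 at 2 months and at 14.79 and 14.51 at 4 months. AZU1 was between 14.75 and 15.87 in the younger and between 14.61 and 15.11 in the older samples, and ELANE between 12.95 and 13.48 and between 12.76 and 13.13. The age differences of these 3 genes were -0.27 (SE 0.29), -0.30 (SE 0.25) and -0.28 (SE 0.16), with limma adjusted p of 0.72, 0.62 and 0.48. From 1 to 4 weeks the mean of S100A8 differed by -0.98 and that of AZU1 by -0.83, lower in both sexes, and with scan day as a block the age differences were -0.54 and -0.52. The spots of S100A8 and AZU1 were near the top of the scale in bone marrow, 1 of 8 samples was saturated for each, and small differences there may be compressed.

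The bone marrow genes with the largest differences pointed both ways. MPO was at 8.77 and 9.12 at 1 week, at 9.25 and 8.60 at 4 weeks, at 7.11 and 7.63 at 2 months and at 8.35 and 7.87 at 4 months. Its groups did not overlap, and the difference was -1.19 (SE 0.26, limma adjusted p = 0.082). LCN2 was at 6.50 and 6.68 at 1 week, at 7.35 and 7.80 at 4 weeks, at 8.13 and 9.25 at 2 months and at 8.20 and 7.74 at 4 months, a difference of 1.25 (SE 0.37, adjusted p = 0.17). LTF was between 9.10 and 9.74 in the younger and between 9.73 and 10.70 in the older samples (0.70, SE 0.23, adjusted p = 0.21), and BPI between 6.62 and 8.24 and between 7.10 and 9.12 (0.99, SE 0.48, adjusted p = 0.39). MPO thus had lower values in all older samples, while LTF, LCN2 and BPI had higher means with overlapping groups, with 0 of 8 genes past the threshold and 3 of 8 at an unadjusted p under 0.05. In bone marrow 0.733% of all genes passed in the fit of 8 samples. The shares of all genes in the next 2 fits are not given here. In the fit of 56 samples the same 3 genes passed, MPO at an adjusted p of 0.0012, LCN2 at 0.0041 and LTF at 0.017, and with scan day as a block MPO (-1.30, adjusted p = 0.0013) and LCN2 (1.05, adjusted p = 0.031) did. Within the 2 days that hold 1 younger and 1 older bone marrow, MPO differed by -1.244 and -0.251, LCN2 by 1.060 and 0.400, and LTF by 0.625 and 0.959, while S100A8 turned sign (-1.364 and 0.384).

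The age changes themselves were compared between the tissues in the fit of 56 samples. Its SE holds only the spread between male and female of a tissue and age. The spread between the 2 ages pooled in a group is left out. For AZU1 in spleen, the SE of the age change was 1.18 in the fit of 8 samples, which counts that spread. Taken as the change in bone marrow minus that in spleen, the difference was 4.91 (SE 0.47, limma adjusted p = 2.2e-09) for AZU1, 3.50 (SE 0.51, adjusted p = 7.4e-06) for S100A8 and 1.74 (SE 0.29, adjusted p = 7e-05) for LTF. LCN2 passed as well at 1.36 (SE 0.43, adjusted p = 0.042), but not with scan day as a block (adjusted p = 0.23) and it was lost when any 1 of 13 of the 16 samples was left out (adjusted p up to 0.12), the exceptions being the 4-week female, 2-month male and 4-month female bone marrow. These are 4 of 8 genes, against 8.65% of all genes. ELANE passed only without the 1-week female spleen (1.12, adjusted p = 0.0095) and PRTN3 only without the 2-month male bone marrow (0.90, adjusted p = 0.0072). Against liver, bone marrow differed in S100A8 by 4.83 (SE 0.51), in BPI by 4.37 (SE 0.56), in AZU1 by 3.72 (SE 0.47) and in LTF by 1.03 (SE 0.29, adjusted p = 0.013), again 4 of 8, against 15.8% of all genes. LCN2 (1.02, SE 0.43, adjusted p = 0.11) passed without the 2-month male bone marrow (1.30, adjusted p = 0.038) and with an offset of 50 (0.92, adjusted p = 0.011). LTF was lost there with scan day as a block (adjusted p = 0.063), without the 1-week male liver (0.06) or without the 4-month male bone marrow (0.063).

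Between spleen and liver, 2 of 8 genes passed against 20.1% of all genes. BPI had no fall in spleen, where it was between 4.61 and 6.40 in the younger and between 5.50 and 6.34 in the older samples, and the difference of the 2 age changes was 3.92 (SE 0.56, limma adjusted p = 3.5e-06). ELANE differed by -0.88 (SE 0.30, adjusted p = 0.035), a call that rested on 8 of the 16 samples. It was lost without the spleen of the 1-week male (-0.59, adjusted p = 0.17), 4-week male, 2-month male or 4-month female, and without the liver of the 1-week female (-0.62, adjusted p = 0.16), 4-week female, 2-month male or 4-month male. The other 6 genes did not pass. Of these, S100A8 (1.33, SE 0.51, adjusted p = 0.062) passed without the spleen of the 4-week male or 4-month female or the liver of the 1-week or 4-week female. AZU1 (-1.19, SE 0.47, adjusted p = 0.069) passed without the spleen of the 1-week or 4-week female or the liver of the 1-week, 4-week or 2-month male. LTF (-0.71, SE 0.29, adjusted p = 0.084) passed without the spleen of the 1-week or 4-week female or the liver of the 1-week male or 2-month female. The lowest adjusted p of these 3 genes was 0.0035.

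Other genes of the neutrophil were read from lists of names. The specific and gelatinase granule list is led by the porcine cathelicidins, small antimicrobial peptides stored as precursors (NPG1, NPG4, PR39, PMAP-23). In spleen 9 of its 15 genes on the array fell and none rose, where 3.11% of all genes passed, and the median difference was -1.30 against 0.03 over all genes. NPG4 fell by 5.28 (SE 0.75, limma adjusted p = 0.013) and NPG1 by 5.25 (SE 0.76, adjusted p = 0.014), and these near-identical protegrin genes may share signal. PMAP-23 fell by 3.38, PR39 by 3.32, ARG1 (arginase 1) by 2.74, CRISP3 by 1.77, MMP8 (the neutrophil collagenase) by 1.34, TCN1 (transcobalamin 1) by 1.30 and HP (haptoglobin) by 0.84. None of these 9 calls held in every fit with 1 sample left out. NPG1 and NPG4 were each lost without the 2-month male, the 2-month female or the 4-month female, and the other 7 without any 1 of 5 to 7 of the 8 samples (adjusted p up to 0.14). With an offset of 50 PMAP-23 was at -1.61, PR39 at -1.73, ARG1 at -2.05, CRISP3 at -0.41, MMP8 at -0.20 and HP at -0.14, and none of these 6 passed, while TCN1 was lost in the fit of 56 samples (adjusted p = 0.11). In liver 4 of the 15 fell, all of them cathelicidins: NPG1 by 5.03, NPG4 by 4.84, PMAP-23 by 4.06 and PR39 by 3.59, where 1.81% of all genes passed. All 4 were lost with an offset of 50 (adjusted p of 0.07 to 0.2), NPG1 and NPG4 also without any 1 of 4 samples, and PMAP-23 and PR39 without any 1 of 6. In bone marrow none of the 15 passed, with a median of 0.23 against 0.01 over all genes, and NPG1 and NPG4 were at the top of the scale there, at 15.87 or more, where a difference could not be seen.

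Of the 4 S100 genes tested, S100A12, the calgranulin next to S100A8, fell by 4.02 in spleen (SE 0.41, limma adjusted p = 0.0032) and by 4.91 in liver (SE 0.74, adjusted p = 0.019). The call in spleen held in every fit, and that in liver was lost with an offset of 50 (-3.18, adjusted p = 0.075) and without the 1-week female, the 2-month male or the 4-month male (0.06 to 0.071). S100A11 fell in liver by 1.47, a call lost without any 1 of 5 samples, and none of the 4 passed in bone marrow. The further azurophil granule list held CTSC, the protease that activates the granule proteases, LYZ (lysozyme), SRGN, CD63, GUSB and SERPINB1. None of these 6 passed in bone marrow, spleen or liver, with medians of 0.10, 0.38 and -0.54 against 0.01, 0.03 and 0.02 over all genes.

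Among the neutrophil surface and chemotaxis genes, ALOX5AP fell in liver by 0.88 (SE 0.15, limma adjusted p = 0.027), and FCGR3A, an Fc receptor also on macrophages, rose in bone marrow by 1.91 (SE 0.23, adjusted p = 0.012). ALOX5AP was lost without any 1 of 5 samples (adjusted p up to 0.1) and FCGR3A without the 4-month female (adjusted p = 0.058). The median of the list in spleen was 0.58, against 0.03 over all genes. Of the 5 subunits of the phagocyte NADPH oxidase NCF4 alone passed in these 3 tissues, with a fall of 1.01 in liver that was lost without any 1 of 6 samples. Of 10 regulators of granulopoiesis none passed in bone marrow, spleen or liver. Of 9 acute phase genes SAA3 passed in spleen (1.23, adjusted p = 0.024), with 0 of 4 younger and 2 of 4 older samples well above background. It was lost without any 1 of 6 samples and with the 2-year male added (0.95, adjusted p = 0.16), and none passed in bone marrow or liver.

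Markers of other cells moved with age in the same organs. In spleen, where 3.11% of all genes passed, 4 of 5 megakaryocyte genes fell in every fit run, PF4 most (by 5.70, SE 0.28), and their mean level was between 6.68 and 7.27 in the younger and between 4.10 and 4.28 in the older samples. Of 10 erythroid genes 2 fell in spleen, EPB42 by 4.06, lost without any 1 of 4 samples, and HBA1 by 2.40, lost without any 1 of 6. The median difference was -2.26, and the mean level was between 8.17 and 11.33 in the younger and between 7.00 and 7.48 in the older samples. The T cell mean level in spleen was between 6.43 and 7.78 and between 8.12 and 8.35, with a median difference of 1.40 and 1 of 7 genes called (CD2, 1.86), and of 5 B cell genes CD79B passed (1.78). In liver, where 1.81% of all genes passed, no erythroid gene did, with mean levels between 6.41 and 8.70 and between 6.05 and 6.40, and 3 of 7 T cell genes did (CD3E 1.38, LCK 1.20 and CD2 0.85). Each of these B and T cell calls in spleen and liver was lost without any 1 of 6 to 8 samples. Among markers of other cells FABP4 (-3.03), COL1A2 (-1.35), MBP (-1.12) and GFAP (-0.74) also passed in spleen. In liver COL1A2 (-2.17) and ITGA2B (0.70) did. Each of these further calls was lost without any 1 of 5 to 8 samples, and GFAP was not well above background in the younger or older spleens. In bone marrow the erythroid mean level was between 10.78 and 11.54 and between 10.69 and 11.56, and 0.733% of all genes passed. There 4 of 7 T cell genes passed (CD3E 3.09, CD5 2.97, LCK 2.52 and CD2 1.98), and all 4 were lost with the 2-year male added and without the 4-month female. Of 5 adipocyte genes PLIN1 (2.22) and CIDEC (1.80) passed, and of 8 macrophage genes CD163 (1.28), but PLIN1 was lost without any 1 of 7 samples and the other 2 without any 1 of 6. With an offset of 50 PLIN1 was at 1.11 and CIDEC at 0.54, and neither passed. Their part in the differences of the granule genes was not tested.

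In kidney, ELANE and PRTN3 rose, by 0.70 (SE 0.18, limma adjusted p = 0.045) and 0.62 (SE 0.15, adjusted p = 0.037), which is 2 of 8 genes against 8.46% of all genes. ELANE was at 8.45, 7.75, 8.50 and 7.99 in the younger and at 9.06, 8.93, 8.73 and 8.77 in the older kidneys, so the groups did not overlap but lay close. PRTN3 was at 6.87, 6.47, 6.58 and 6.43 and then at 7.46, 7.00, 7.15 and 7.21. Neither rise reached 2-fold, and each was lost without any 1 of 6 of the 8 samples (adjusted p up to 0.12). ELANE was also lost with an offset of 50, median scaling, either form of the processed intensities, the authors' values or the 2-year male added (adjusted p of 0.053 to 0.074), and PRTN3 with the offset, median scaling or the 2-year male (0.056 to 0.075). ELANE held only without the 4-week male or the 4-month female, and PRTN3 only without the 2-month female or the 4-month female. S100A8 was at 7.22 and 6.85 in the kidneys at 1 week and not well above background in any later one. The younger and older means were 5.47 and 2.88 (adjusted p = 0.055), and the difference passed without the 4-week male (-3.23, adjusted p = 0.023). Both means hold values not well above background, so no bound on the fold is given. S100A9 was at 5.17 and 5.16 at 1 week and between 2.59 and 3.19 later, and AZU1 was at 7.45 and 5.46 at 1 week and between 3.93 and 5.03 later. The 1-week kidneys thus held both calprotectin subunits and AZU1 at higher levels than any later kidney. LCN2 had a difference of 1.01 (SE 0.36, adjusted p = 0.11) in kidney, which passed without the 4-month female (1.26, adjusted p = 0.039).

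LCN2 in cerebellum was at 5.34 and 5.06 at 1 week, at 6.53 and 7.62 at 4 weeks, at 7.77 and 8.64 at 2 months, at 8.70 and 8.41 at 4 months and at 8.06 at 2 years. Both sexes had a higher value at each step up to 2 months, and the groups did not overlap. The rise was 2.25 (SE 0.48, limma adjusted p = 0.043), or 4.74-fold, and 1 of 8 genes passed in cerebellum against 2.29% of all genes. It held without the 4-week female or the 2-month male and was lost without any 1 of the other 6 samples (adjusted p of 0.075 to 0.13) and with sex as a block (adjusted p = 0.053). It was also lost with an offset of 50, processed intensities, the authors' values or a robust trend in the variance (adjusted p of 0.071, 0.08, 0.082 and 0.059) and with the 75th percentile scaling (0.052). In the fit of 56 samples the adjusted p was 9.1e-06.

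The age change of LCN2 was not compared between brain regions by a test. In cerebral cortex its mean was 4.13, 4.76, 4.93 and 5.53 at the 4 ages up to 4 months. There it was between 3.96 and 5.39 in the younger and between 4.30 and 6.13 in the older samples (0.79, SE 0.40, limma adjusted p = 0.34), and in hypothalamus it stayed between 3.80 and 4.42. S100A8, AZU1, LTF and BPI had age differences of -0.74, -0.08, -0.15 and -0.38 in cerebellum, none of which passed, and S100A8 did without the 4-week female (-1.03, adjusted p = 0.042). Ovary held the highest single LCN2 value of all samples, 9.42 at 4 weeks, between 6.65 at 1 week and 6.13 at 2 months and 5.02 at 4 months, with 1 sample per age and no test. Testis had no LCN2 value well above background.

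**Figure D4:**
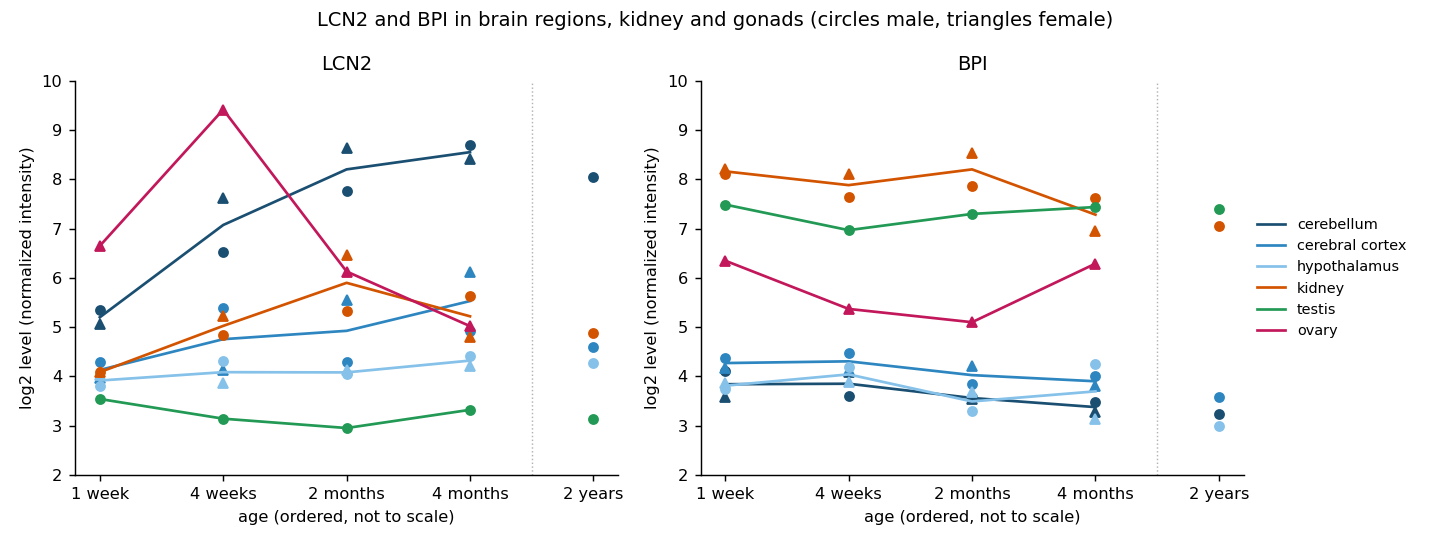
Log2 level of LCN2 and BPI by age in the 3 brain regions, kidney, testis and ovary, with circles for males, triangles for females and lines through the mean of each age up to 4 months. LCN2 climbs in cerebellum from 5.06 and 5.34 at 1 week to 8.41 and 8.70 at 4 months and stays below 6.2 in cerebral cortex and hypothalamus, while BPI stays near or above 7 in kidney and testis at all ages.

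BPI had a tissue distribution of its own. In kidney it was at 8.12 and 8.21 at 1 week, at 7.65 and 8.12 at 4 weeks, at 7.87 and 8.54 at 2 months, at 7.62 and 6.95 at 4 months and at 7.06 at 2 years, with an age difference of -0.28 (SE 0.29, limma adjusted p = 0.58). In testis it was at 7.49, 6.97, 7.30, 7.44 and 7.39 over the 5 ages. In ovary it was between 5.10 and 6.35, and in brain between 3.14 and 4.48 up to 4 months, where 4 of 27 samples, counting the 2-year male, were well above background. S100A8, LTF and MPO were below their bone marrow ranges in kidney and testis, and after 1 week no kidney or testis was above 4.40 for S100A8, 5.13 for LTF or 5.47 for MPO.

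MPO in cerebral cortex was at 4.71, 4.05, 3.91 and 4.26 in the younger samples, 2 of which were not well above background, and at 5.31, 5.68, 5.41 and 5.38 in the older ones. The rise was 1.21 (SE 0.17, limma adjusted p = 0.019), 1 of 8 genes against 1.77% of all genes, and it was lost without the 4-month male (adjusted p = 0.06) or the 2-month female (adjusted p = 0.052). In cerebellum MPO was at 3.80, 4.88, 4.13 and 4.49 and then at 4.87, 4.56, 5.45 and 5.45 (0.75, SE 0.26, adjusted p = 0.14), and in hypothalamus the difference was 0.05 (SE 0.34). In hypothalamus none of the 8 genes and 0% of all genes passed in limma, with 0 of the 8 at an unadjusted p under 0.05. The 2 MPO probes had r = 0.76 over the 72 samples, the lowest of the 8 genes.

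The 2-year bone marrow sample, a single male, lay below all 8 younger bone marrow samples for all 8 genes, a position that 25.6% of all genes took. AZU1 was at 7.11, with a difference of -7.95 from the mean of the younger samples, S100A8 at 8.26 (-6.57), ELANE at 8.04 (-5.08), PRTN3 at 6.66 (-3.76), BPI at 4.37 (-3.39), MPO at 4.99 (-3.34) and LTF at 7.44 (-2.45). LCN2, at 6.48 (-1.22), was only just below the lowest younger sample at 6.50. For ELANE, PRTN3, MPO, BPI and LCN2 the sample lay within the range of the brain samples up to 4 months. Against the older spleens it was above for S100A8, AZU1, LTF and LCN2, within for MPO and below for ELANE, PRTN3 and BPI.

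**Figure D5:**
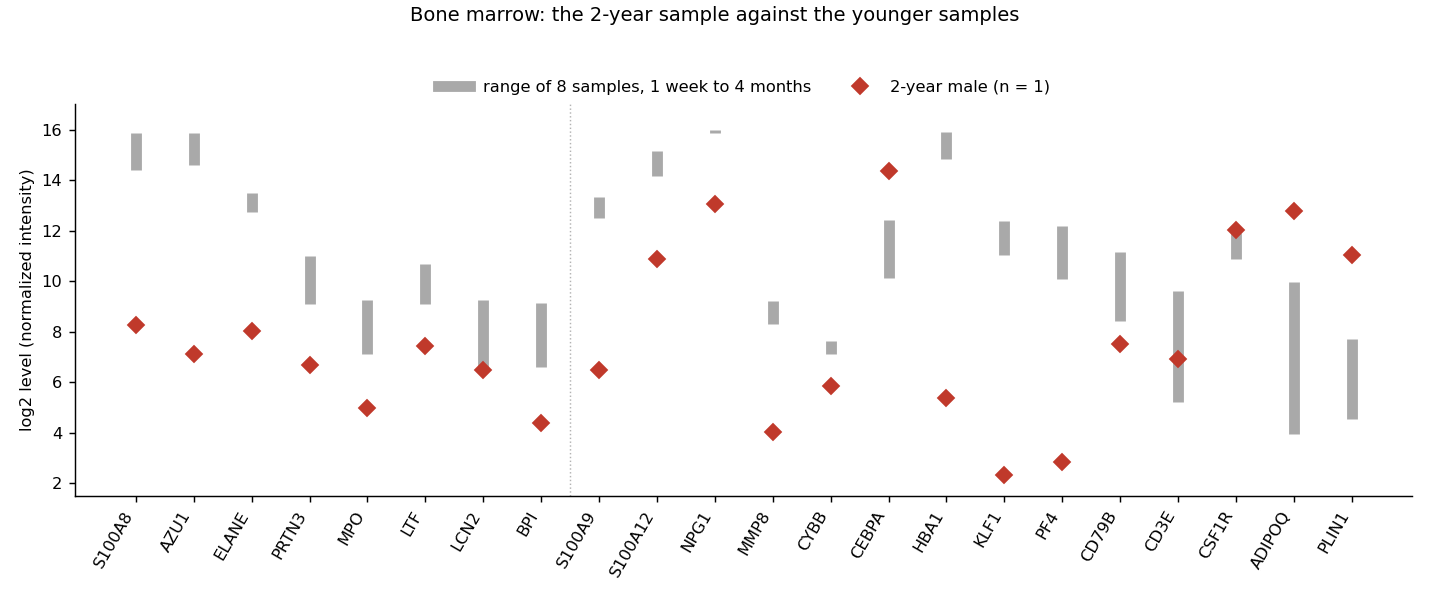
Log2 level in the 2-year bone marrow sample (diamonds, n = 1) and the range of the 8 bone marrow samples from 1 week to 4 months (bars; 7 samples for S100A9), for the 8 genes left of the dotted line and for genes of other lists right of it. The diamond lies below the bar for all 8 genes and for the erythroid genes HBA1 and KLF1, and above it for the adipocyte genes ADIPOQ and PLIN1.

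Other lists were out of range in that sample too. Of all genes, 25.6% lay below all 8 younger bone marrow samples and 27.6% above them. Of 15 specific and gelatinase granule genes 12 were below the younger range, CRISP3 at 2.82 against at least 10.35 and ARG1 at 4.17 against at least 9.63, and NPG1 was still at 13.05. All 5 NADPH oxidase genes and 8 of 12 surface genes were below, but of the 6 further azurophil granule genes only SRGN and SERPINB1 were. CD63 and GUSB of that list were above the younger range. All 10 erythroid and all 5 megakaryocyte genes were below the younger range as well, with HBA1 at 5.36 against at least 14.85 and PF4 at 2.83 against at least 10.09. The 7 T cell genes lay within the younger range and 4 of 5 B cell genes below it. All 5 adipocyte genes were above, ADIPOQ at 12.79 against at most 9.96, and CEBPA, which is also expressed in adipocytes, was at 14.35 against at most 12.43. The mean adipocyte level was between 5.49 and 6.01 in the younger, between 6.64 and 9.05 in the 2- and 4-month and at 11.36 in the 2-year bone marrow. Their part in the levels of the granule genes was not tested, and with 1 male on slides that hold no other age, the sample, the age and the slide cannot be told apart.

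Over the 72 samples, 6 of the 8 genes ran together. The Pearson correlations among S100A8, MPO, ELANE, AZU1, PRTN3 and LTF were between 0.84 and 0.96, a description over samples that share tissues and slides. Without the 9 bone marrow samples they were between 0.30 and 0.87, highest for S100A8 with AZU1. LCN2 correlated with the other 7 at 0.03 to 0.45 and BPI at 0.03 to 0.48. The genes of the whole array whose levels ran most closely with a member over the 72 samples were mostly bone marrow genes. For AZU1 they were 2 transcripts without a matched symbol, at r = 0.985 and 0.977, and PMAP-23 at 0.975. For S100A8 they were S100A12 at 0.967, PMAP-23 at 0.966 and AZU1 at 0.965, and for LTF they were PR39 at 0.953 and PRG3 at 0.951, followed by PMAP-23. ELANE had PTI at 0.939 and PRTN3 at 0.935 among its closest 3, PRTN3 had SLC13A5 at 0.944, ELANE at 0.935 and C19orf59 at 0.928, and MPO had LOC100154047 at 0.923. BPI was closest to TBXAS1 (thromboxane synthase) at 0.829, and it kept 0.827 without bone marrow. LCN2 was closest to MCTP1 at only 0.759 and ABTB1 at 0.696.

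Males and females were compared over the 28 pairs of the same tissue and age up to 4 months. None of the 8 genes passed in limma, and 2 of them (LTF and S100A8) had an unadjusted p under 0.05, while 0.253% of all genes passed. The largest differences were 0.32 (SE 0.13, limma adjusted p = 0.43) for S100A8 and 0.25 (SE 0.07, adjusted p = 0.14) for LTF, both higher in males. In the renal pelvis of the 2-year male, a single array, BPI was at 9.20 and LCN2 at 6.38, each above all 8 repeats of the kidney of that male (7.06 ± 0.10 and 4.89 ± 0.11, SD, n = 8 technical repeats), as were 32% of all genes. MPO, ELANE, PRTN3 and LTF were below all 8 repeats, as were 31.3% of all genes, and S100A8 and AZU1 lay within them.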

How the data were processed

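Total RNA of Göttingen minipig tissues was labelled with Cy3 and hybridized to 80 custom Agilent arrays. The deposited files hold the spot intensity, raw and background-subtracted, as written by Agilent Feature Extraction 11.5.1.1 per the file headers and the submitters' processing notes. The authors also deposited a table of log2 values, which their methods describe as RMA background corrected and quantile normalized. Every column of that table has the same distribution, it follows the scanner values at Spearman correlations of 0.957 to 0.990 per array, and it was used only as an alternative. How genes were centred in it was not stated.

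Raw median intensities were corrected with normexp (offset 0), quantile normalized and averaged over the probes of a gene with limma 3.58.1 in R 4.3.3 (statmod 1.5.0, data.table in version 1.17.8). Control spots and flagged spots (10 to 590 per array) were left out, and 14 of 23736 genes without a value in some sample were not tested, which left 23722. Of 10818 genes named by accession, 3019 were matched to a RefSeq symbol. The median gene spot intensity was 27 to 89 and 48.76% to 65.81% of gene spots were well above background, and the number of samples limits the precision. The median SD over the 8 technical repeats of the 2-year kidney was 0.115.

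Samples were grouped by the labelled tissue, age and sex. Age, tissue, sex and interaction contrasts were tested with limma's moderated test, two-sided, and Benjamini-Hochberg adjusted over all genes. Leave-one-out fits, other backgrounds and scalings, the dim gene filter, the probe summary, moderation, blocks and the fit of 56 samples were tried as alternatives. Tested on simulated data for the bone marrow age comparison (23722 genes), the fit recovered 187 of 200 changed genes with 16 false calls. That recovery was not broken down by size of change. Recovery of differences as small as those of the members in bone marrow was not tested. Within tissues, the deviations of the male samples from the mean of their age correlated between ages at -0.234 to 0.347. Samples of the same age and sex in different tissues correlated at -0.032 to 0.317. The medians were 0.110, 0.113, 0.167 and 0.099 at 1 week, 4 weeks, 2 months and 4 months. Shared labels were not taken as pairs, but these values cannot exclude that tissues share an animal. The fit of 56 samples treats all samples as independent. Named genes were the members, the 3 closest genes by correlation over 72 samples, and up to 4 genes per list with the largest age change in bone marrow or spleen. Others named were those past the threshold or chosen after their values were seen. The result of 1 gene of the surface list is not reported here. The members and lists were chosen with earlier results of these data known. Tables and plots used Python 3.11.15, numpy 2.4.6, pandas 2.3.3, scipy 1.17.1 and matplotlib 3.10.9.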

Additional observations from a re-analysis of the deposited data

Results flagged for a closer look

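Of 112 groups of 4 samples (8 genes, 7 tissues, younger and older), 9 held a sample whose gap to the nearest other sample was more of the group's range than Dixon's limit allows, and chance flags about 1 in 20 groups. The gap as a share of the range was 0.842 for S100A8 in the older livers (4-month female at 3.86), 0.844 for S100A8 in the older kidneys (4-month male at 3.40) and 0.837 for S100A8 in the older cerebral cortex (2-month male at 5.02). It was 0.925 for ELANE in the younger hypothalamus (4-week female at 7.72), 0.880 for ELANE in the older hypothalamus (4-month female at 9.15) and 0.888 for AZU1 in the older hypothalamus (2-month male at 5.00). It was 0.832 for AZU1 in the older livers (2-month female at 5.67), 0.835 for BPI in the younger kidneys (4-week male at 7.65) and 0.868 for LTF in the older cerebral cortex (2-month female at 3.83).

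The age change differed between 2 tissues, by the test of the difference in the fit of 56 samples, in 10 cases. That test counts only the spread between male and female of a tissue and age. Bone marrow minus spleen gave 3.50 for S100A8, 4.91 for AZU1, 1.74 for LTF and 1.36 for LCN2. Spleen minus liver gave -0.88 for ELANE and 3.92 for BPI. Bone marrow minus liver gave 4.83 for S100A8, 3.72 for AZU1, 4.37 for BPI and 1.03 for LTF.

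The renal pelvis array, which enters no comparison between groups, had BPI at 9.20 and LCN2 at 6.38, both above every technical repeat of the kidney of the same male.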

How the results depend on the processing

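The counts of the 8 genes past the threshold depended on the fit. The shares of all genes that passed in the alternative fits are not given here, so these counts are not set against a background. In bone marrow 0 passed by age, against 3 in the fit of 56 samples, 3 with slide as a random block (estimated correlation 0.0527) and 2 with scan day as a block. In spleen 1 passed, against 6, 6 and 5 in those fits and 2 with the 75th percentile of processed intensities. In liver 2 passed, against 4, 4 and 4 in those fits, 0 with an offset of 50 and 1 each with processed intensities, the authors' values and a robust trend in the variance. In kidney 2 passed, against 4 in the fit of 56 samples and with slide as a random block. There 0 passed at 2-fold or more, with the offset or with median scaling, and 1 each with processed intensities, their 75th percentile, the authors' values and the 2-year male added. In cerebellum 1 passed, against 0 with the offset, processed intensities, their 75th percentile, the authors' values and the robust trend. At 2-fold or more, 0 of 3 passed between spleen and liver, 5 of 8 between spleen and brain, and 1 of 2 in the age change of spleen against liver.

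With sex as a replicate block the cerebellum count fell to 0, and with sex and age as a replicate block the count for the age change of spleen against liver was 4. The block moved no other count by over 1.5 times, and the samples share only a label, not a known pairing.

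Leaving out 1 sample at a time gave 0 to 3 genes in spleen, 0 to 2 in liver, 0 to 3 in kidney, 0 to 2 in cerebellum, 0 to 1 in cerebral cortex and 0 in bone marrow and hypothalamus. It gave 3 to 5 between spleen and liver, 1 to 4 for the age change of spleen against liver, and 3 to 5 for that of bone marrow against spleen and against liver. The bone marrow contrasts with spleen, liver and brain kept all 8.

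In the contrasts with brain the median over all genes lay at 0.06 to 0.09, at 0.25 to 0.28 with median scaling and at 0.02 to 0.25 with the 75th percentile, and the differences given for single genes are not corrected for it.

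Over 182 gene results (136 of the 8 genes and the list genes past the threshold by age in bone marrow, spleen or liver) and 4990 alternatives, 4440 kept direction and side of the threshold, 418 fell below it, 80 passed it and 52 changed sign. The sign changed in 18 results, none of which passed before or after. With 1 sample left out the age difference ranged from -0.45 to 0.03 for S100A8 in bone marrow, -0.36 to 0.12 for LCN2 in spleen and -0.38 to 0.08 for ELANE in liver. In cerebellum it ranged from -0.22 to 0.06 for AZU1, and in cerebral cortex from -0.25 to 0.01 for AZU1, -0.13 to 0.05 for PRTN3 and -0.07 to 0.01 for LTF. In hypothalamus it ranged from -0.14 to 0.27 for MPO, -0.10 to 0.20 for AZU1, -0.05 to 0.27 for PRTN3 and -0.02 to 0.14 for LTF. The difference of age changes between bone marrow and spleen ranged from -0.06 to 0.95 for BPI, and that between bone marrow and liver from -0.38 to 0.10 for MPO, -0.30 to 0.21 for ELANE and -0.60 to 0.24 for PRTN3. The male against female difference ranged from -0.02 to 0.06 for MPO and -0.05 to 0.04 for PRTN3. With the 75th percentile LCN2 in spleen was at 0.02, LTF in cerebellum at 0.00 and PRTN3 in cortex at 0.07 (0.05 with processed intensities and with the authors' values). With scan day LCN2 in spleen was at 0.03, AZU1 at 0.10 in cerebellum and -0.16 in hypothalamus, and LTF at -0.09 in hypothalamus. With the 2-year male MPO was at -0.00 and LTF at -0.03 in hypothalamus, and with the offset LTF in cortex was at 0.01. The cause of these moves was not tested. Values not well above background in a whole group, such as S100A8 in older liver, are bounds.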

Other observations

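Both genes described here were singled out after their values were seen. LYZ (lysozyme) split the bone marrow samples, with 1 sex higher at each age but not the same sex throughout. In spleen the same sex was higher at 1 week (9.40 against 5.47), 4 weeks (8.74 against 7.05) and 4 months (9.54 against 7.58). At 2 months spleen had the other order (male 8.02, female 8.22). Liver and kidney had the order of spleen at each of these ages, with some values not well above background. The labels do not say whether these tissues share animals. The bone marrow values follow. LYZ was at 13.09 in the 1-week female, 12.06 in the 4-week male, 11.49 in the 2-month male and 12.29 in the 4-month female. It was between 6.72 and 7.74 in the other 4 bone marrow samples up to 4 months.

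PMAP-36, a cathelicidin of the specific granules, was at 13.48 and 13.21 in the 4-month male and female bone marrow and between 3.29 and 4.27 in the other 7, the 2-year male included. The other cathelicidins on the array did not split in this way, with PR39 between 13.06 and 15.05 and PMAP-23 between 12.98 and 14.02 up to 4 months.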
